A study of Mus musculus with 20 samples.

Results

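The Prame-like genes Pramel1, Pramel3, Pramel4, Pramel5, Pramel6 and Pramel7 were followed through RNA sequencing of mouse preimplantation embryos. They are 6 of the 25208 gene rows in the count table and were picked by symbol, as a family whose members moved in opposite directions after P300 siRNA. The P300 siRNA against control values therefore chose them and are given as a description, with no p-value for the members. The 20 Smart-seq2 libraries form 10 groups of 2. At the late 8-cell stage, embryos labelled P300 knockdown with an I1394G rescue, P300 knockdown with an NaCr rescue, and P300 siRNA (genotype label P300 knockdown) stood beside controls (genotype label WT). Earlier embryos, P300 siRNA and controls alike, came from late 2-cell, from 4-cell and from early 8-cell cultures. All embryos had been cultured as zygotes in KSOM medium. The labels used here give neither the number of embryos behind a library, nor what the controls received, nor what the I1394G and NaCr rescues contained, and no source says that the 2 libraries of a group came from separate cultures, so p-values measure only the spread between these libraries.

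PRAME-family proteins are leucine-rich-repeat proteins, many of which act as substrate receptors of ubiquitin ligases built on the scaffold CUL2, and the family has expanded into clusters of similar genes in the mouse. PRAMEL7 is known as a factor of naive mouse pluripotency that acts downstream of LIF and STAT3, and PRAMEL7 and PRAMEL6 are known to lower UHRF1, a protein needed to maintain DNA methylation. Human PRAME is known as a repressor of retinoic acid receptor signalling. Ep300 encodes P300, a histone acyltransferase and transcriptional coactivator.

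The start-site regions of 5 members are shown because they show how far these genes differ at their promoters. Each runs from 250 bases before to 50 bases after the RefSeq start, in build GRCm38.p6, 5′ to 3′ along the gene. Pramel4 (chr4:144058875-144059174, plus strand) and Pramel5 (chr4:144280417-144280716, minus strand) matched at 267 bases, 89.0% of 300, whereas the other 14 pairs matched at 46.0% to 53.0%. Capitals mark the 5 runs of at least 12 bases that both hold, which cover 220 bases and reach 111 bases in the longest.
Pramel4: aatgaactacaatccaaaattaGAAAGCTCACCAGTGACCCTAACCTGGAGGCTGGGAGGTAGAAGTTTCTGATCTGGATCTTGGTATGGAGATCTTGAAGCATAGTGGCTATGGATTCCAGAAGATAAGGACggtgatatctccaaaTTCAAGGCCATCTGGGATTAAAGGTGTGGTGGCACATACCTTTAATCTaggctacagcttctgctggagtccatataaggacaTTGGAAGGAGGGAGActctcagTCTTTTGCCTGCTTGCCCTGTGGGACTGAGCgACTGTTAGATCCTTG
Pramel5: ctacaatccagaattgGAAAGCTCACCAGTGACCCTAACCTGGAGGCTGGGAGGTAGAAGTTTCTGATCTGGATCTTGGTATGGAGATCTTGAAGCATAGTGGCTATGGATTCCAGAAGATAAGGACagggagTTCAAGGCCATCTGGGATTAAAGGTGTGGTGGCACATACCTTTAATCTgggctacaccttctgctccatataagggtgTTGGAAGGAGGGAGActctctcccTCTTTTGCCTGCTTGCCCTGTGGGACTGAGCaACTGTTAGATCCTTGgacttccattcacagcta

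Pramel6 (chr2:87506315-87506614, plus strand) and Pramel7 (chr2:87492369-87492668, minus strand) are neighbours on chromosome 2, and Pramel3 (chrX:135302066-135302365, plus strand) lies on the X chromosome. Here capitals mark CCAAT on either strand, and Pramel7 has no capitals because it holds none.
Pramel6: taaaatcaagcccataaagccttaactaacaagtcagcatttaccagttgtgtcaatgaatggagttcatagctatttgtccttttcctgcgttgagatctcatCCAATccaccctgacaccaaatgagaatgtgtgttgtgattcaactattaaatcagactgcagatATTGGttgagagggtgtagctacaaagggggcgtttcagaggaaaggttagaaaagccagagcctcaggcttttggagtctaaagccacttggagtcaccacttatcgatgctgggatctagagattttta
Pramel7: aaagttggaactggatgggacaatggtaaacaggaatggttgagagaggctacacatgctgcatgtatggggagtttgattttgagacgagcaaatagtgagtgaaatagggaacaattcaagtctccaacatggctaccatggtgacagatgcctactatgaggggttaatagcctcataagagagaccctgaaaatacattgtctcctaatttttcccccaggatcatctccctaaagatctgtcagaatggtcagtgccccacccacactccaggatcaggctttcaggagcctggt
Pramel3: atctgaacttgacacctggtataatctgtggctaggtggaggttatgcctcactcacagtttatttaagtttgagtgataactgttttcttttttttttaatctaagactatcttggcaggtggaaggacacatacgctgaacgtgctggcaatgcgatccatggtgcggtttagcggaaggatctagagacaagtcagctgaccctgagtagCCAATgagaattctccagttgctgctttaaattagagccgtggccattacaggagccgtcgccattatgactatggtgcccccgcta

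The 4 short motifs named next, chosen after these regions had been read, were searched on both strands of 27025 RefSeq promoters of the same length. CCAAT was in 5 of the 6 members and in 37.9% of all promoters. GGGCGG was in Pramel1 alone among the members and in 35.9% of all promoters. Neither TATAAA, held by 14.2% of all promoters, nor TTCNNNGAA, held by 8.47%, had a match in any member. The region held 20 CpG dinucleotides in Pramel1 and 9 in Pramel3, against 2, 0, 3 and 1 in Pramel4, Pramel5, Pramel6 and Pramel7. The median of all promoters was 7. A match describes letters in this window and says nothing of whether a factor binds there.

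Libraries held 3.2 M to 24.8 M counts, and levels are given as CPM, counts scaled to the library's size, replicate 1 before replicate 2. Whether the libraries of 2 groups overlap is stated only as a description. The share of all genes without overlap is not given here. Ep300 had 22.6 to 29.9 CPM in P300 siRNA embryos and 83.8 to 86.1 CPM in controls at the late 2-cell stage, 11.4 to 19.1 CPM after P300 siRNA against 48.3 to 88.4 CPM in controls at the 4-cell stage, and 11.7 to 16.4 CPM after P300 siRNA against 41.5 to 82.9 CPM in controls at the early 8-cell stage. At the late 8-cell stage it had 14.8 to 16.2 CPM with I1394G, 11.6 to 12.6 CPM with NaCr, 13.2 to 16.2 CPM in P300 siRNA embryos and 15.2 to 22.0 CPM in controls, so siRNA and control libraries overlapped there. The 5 embryo markers (Pou5f1, Sox2, Nanog, Sall4, Dppa5a) summed to between 564 and 5905 CPM over the libraries. From the 4-cell stage on their sum was lower after P300 siRNA, and at the late 8-cell stage higher with both rescues, like Pramel4 to Pramel7. It did not follow the rise of Pramel4, Pramel5 and Pramel6 in controls, from 4803 to 5084 CPM in early to 4955 to 5104 CPM in late 8-cell embryos. In late 8-cell embryos their sum was 4459 to 4629 CPM with I1394G, 5810 to 5905 CPM with NaCr, 1247 to 1953 CPM after P300 siRNA and 4955 to 5104 CPM in controls, and it was likewise lower after P300 siRNA without overlap at the 4-cell stage (1761 to 2946 CPM, against 3079 to 4782 CPM in controls) and the early 8-cell stage (1703 to 2212 CPM, against 4803 to 5084 CPM in controls). The 5 markers of compacting embryos and trophectoderm (Cdx2, Gata3, Krt8, Krt18, Tead4) summed in late 8-cell embryos to 406 to 470 CPM with I1394G, 523 to 596 CPM with NaCr, 324 to 375 CPM after P300 siRNA and 584 to 642 CPM in controls. At the early 8-cell stage they summed to 47.4 to 86.1 CPM after P300 siRNA and 254 to 269 CPM in controls. The 4-cell sums were 44.7 to 86.2 CPM after P300 siRNA and 117 to 173 CPM in controls. Late 2-cell sums went the other way, at 51.4 to 55.15 CPM after P300 siRNA and 40.0 to 43.3 CPM in controls. The 11 cumulus and granulosa cell markers summed to between 1.13 and 18.0 CPM. In late 8-cell embryos that last sum was 10.6 to 18.0 CPM after P300 siRNA and 1.64 to 1.77 CPM in controls, and the part of these sums in the results was not tested. No marker of these lists was at 0 in every library. The deposited FPKM column of control early 8-cell replicate 2 correlated with its own count column at only 0.854 (log2 values over 7134 genes), while the other 19 libraries reached 0.988 or more, so counts carry every comparison. In whole-embryo libraries, fewer cells of a type and less RNA per cell cannot be told apart.

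In control embryos the family split into 2 time courses. Pramel4, Pramel5, Pramel6 and Pramel7 were higher at the 4-cell than at the late 2-cell stage, while Pramel3 was lower. Pramel7, the pluripotency factor, had 1566 and 1616 CPM in 4-cell controls and 156 and 185 CPM in late 2-cell controls, a log2 fold change of 3.22 ± 0.21 (SE, adjusted p = 5.58e-10, edgeR's quasi-likelihood test with Benjamini-Hochberg adjustment over 16603 genes). Pramel6, which shares with Pramel7 the known effect on UHRF1, had 547 and 420 CPM in 4-cell controls and 95.2 and 84.3 CPM in late 2-cell controls. The edgeR log2 fold change was 2.43 ± 0.22 for Pramel6 (adjusted p = 3.22e-08), 2.28 ± 0.22 for Pramel5 (adjusted p = 5.53e-08) and 1.38 ± 0.25 for Pramel4 (adjusted p = 0.000116). Pramel3 had 3 and 0 counts in 4-cell controls and 116 and 82 counts in late 2-cell controls. That is a ratio of 0.0111 with a 95% counting interval of 0.00228 to 0.0331, and an edgeR adjusted p of 6.25e-05. The fitted log2 fold change of -6.24 was -9.82 without control 4-cell replicate 1 and -4.74 without control 4-cell replicate 2, and the call was kept. Pramel1 had 0.516 and 1.24 CPM in 4-cell controls and 6.39 and 5.22 CPM in late 2-cell controls, without overlap, but missed the threshold (edgeR adjusted p = 0.0806). In all, 4 members were called higher and 1 lower, where 61.2% of all tested genes were called in this step, 27% higher and 34.2% lower.

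Between the 4-cell and early 8-cell stages of the controls no member was called by edgeR, against 1.13% of all genes, 0.62% higher and 0.506% lower. At an unadjusted p under 0.05 there were 2 members, Pramel3 and Pramel5. DESeq2 and limma on FPKM called no member either, and edgeR without the low-count filter called 1. From the early to the late 8-cell stage, Pramel4, Pramel5 and Pramel6 rose again. Pramel5 had 1049 and 1118 CPM in late 8-cell controls and 143 and 128 CPM in early 8-cell controls, a log2 fold change of 3 ± 0.22 (edgeR adjusted p = 3.34e-07). Pramel6 had 1801 and 1934 CPM in late and 509 and 569 CPM in early 8-cell controls (log2 fold change 1.79 ± 0.21, edgeR adjusted p = 2.13e-05). Pramel4 had 179 and 219 CPM in late and 87.6 and 52.1 CPM in early 8-cell controls (1.51 ± 0.25 on the log2 scale, edgeR adjusted p = 0.000282). Pramel7 had 1910 and 1919 CPM in late and 1553 and 1498 CPM in early 8-cell controls, without overlap, and its log2 fold change of 0.33 ± 0.19 missed the threshold (edgeR adjusted p = 0.226). In this step 3 members were called, all higher, where 26.2% of all genes were called, 15% higher and 11.2% lower. These stage steps use the control libraries that also entered the choice of members.

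**Figure D1:**
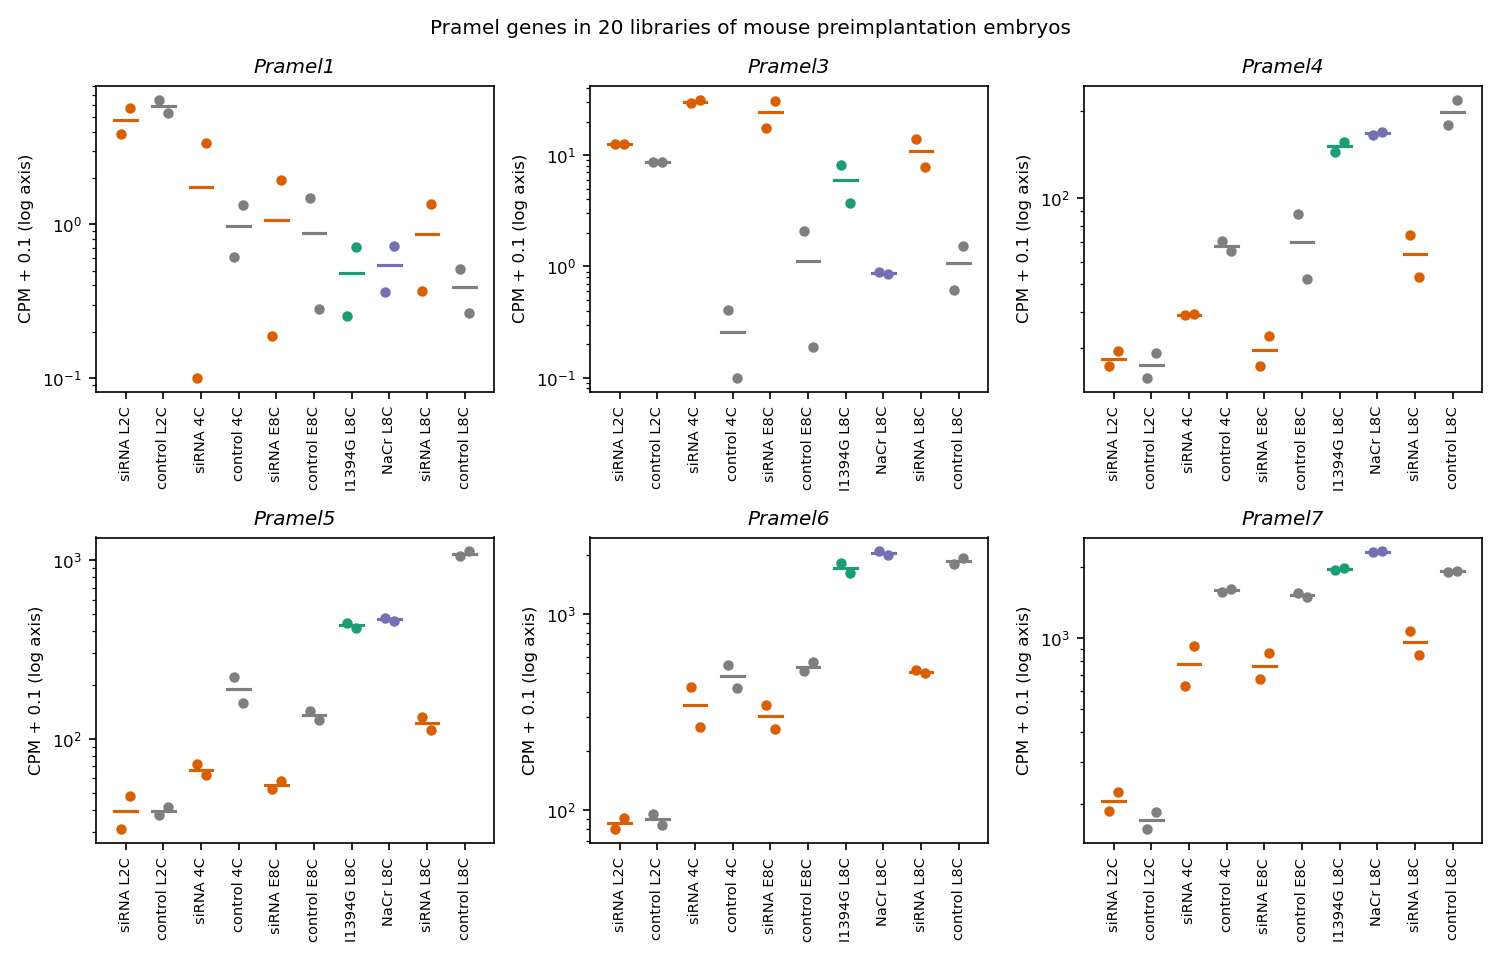
CPM + 0.1 (vertical log axis) of each member in the 20 libraries. Points are libraries (P300 siRNA orange, controls grey, I1394G green, NaCr purple), short lines are group means, and L2C and 4C mark late 2-cell and 4-cell embryos, and E8C and L8C those at the early and the late 8-cell stage. Pramel3 keeps 7.80 CPM or more in every P300 siRNA library without a rescue, while Pramel5, with a control mean of 1084 CPM at L8C, reaches 122 CPM on average in P300 siRNA embryos.

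At the late 2-cell stage the P300 siRNA and control libraries differed little in the 4 abundant members. Pramel4 had 25.8 and 29.1 CPM after P300 siRNA and 23.6 and 28.7 CPM in controls, with a log2 fold change of 0.07 ± 0.25. For Pramel5 it was 0.02 ± 0.21 and for Pramel6 -0.07 ± 0.21, both with overlapping libraries. These 3 values changed sign with the library left out, over -0.06 to 0.22 for Pramel4, -0.33 to 0.29 for Pramel5 and -0.17 to 0.02 for Pramel6. Pramel7 had 187 and 225 CPM after P300 siRNA and 156 and 185 CPM in controls, so its libraries did not overlap, at a log2 fold change of 0.27 ± 0.19. Pramel3 had 12.5 and 12.6 CPM after P300 siRNA and 8.53 and 8.56 CPM in controls, at 0.56 ± 0.70. No member was called by edgeR and 0.00602% of all genes were, which is 1 gene, with 689 genes and no member at an unadjusted p under 0.05. DESeq2 called 33 genes and limma on FPKM 43, again with no member among them. The count of genes depended on the setting: limma on unfiltered FPKM called 419 and edgeR on the 4 libraries alone 508.

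Pramel3 was the member that stood higher after P300 siRNA from the 4-cell stage on. In 4-cell embryos it had 29.1 and 31.3 CPM after P300 siRNA, against 0.310 and 0 CPM in controls. These CPM rest on 723 counts after P300 siRNA and 3 counts in controls, a ratio of 322 with a 95% counting interval of 110 to 1570 that covers counting error only. In early 8-cell embryos it had 17.6 and 30.8 CPM after P300 siRNA and 1.97 and 0.0897 CPM in controls (log2 fold change 4.57 ± 0.84). The late 8-cell values were 13.8 and 7.80 CPM after P300 siRNA and 0.513 and 1.43 CPM in controls (3.43 ± 0.79). The groups did not overlap at any of the 3 stages. The size rests on few control counts: without control 4-cell replicate 1 the fitted value was 11.7, without control 4-cell replicate 2 it was 6.57, and the early 8-cell value was 7.92 without control early 8-cell replicate 1 and 3.61 without control early 8-cell replicate 2. The late 8-cell value was 4.33 without control late 8-cell replicate 2. Over the 10 groups Pramel3 was highest in P300 siRNA 4-cell embryos, which overlapped P300 siRNA early 8-cell embryos, and lowest in 4-cell controls. P300 siRNA late 2-cell and P300 siRNA late 8-cell embryos followed and overlapped each other, and the late 8-cell libraries also spanned the late 2-cell controls.

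Pramel3 is X-linked, so Xist and 4 Y-linked genes are given beside it. Xist, the RNA that coats the inactive X chromosome, had 73.4 and 87.3 CPM as the lowest and highest library of 4-cell P300 siRNA embryos, against 0.367 and 72.8 CPM in 4-cell controls. In early 8-cell embryos its range was 80.9 to 92.5 CPM after P300 siRNA and 97.8 to 121 CPM in controls. In late 8-cell embryos it was 53.3 to 69.8 CPM after P300 siRNA and 140 to 276 CPM in controls. In late 2-cell embryos it was 4.08 to 5.84 CPM after P300 siRNA and 1.04 to 1.32 CPM in controls. Xist was thus higher after P300 siRNA at the late 2-cell stage and, barely above the higher control library, at the 4-cell stage. It was lower at the last 2 stages, while Pramel3 was higher from the 4-cell stage on. Late 8-cell Xist was at 98.3 to 139 CPM with I1394G and 93.1 to 127 CPM with NaCr. All 4 Y genes were higher without overlap in late 8-cell P300 siRNA embryos. There Ddx3y was at 74.6 to 95.1 CPM after P300 siRNA and 30.9 to 68.4 CPM in controls, Eif2s3y at 128 to 162 CPM after P300 siRNA and 45.0 to 97.0 CPM in controls, Kdm5d at 5.58 to 6.29 CPM after P300 siRNA and 1.54 to 2.48 CPM in controls, and Uty at 10.1 to 16.7 CPM after P300 siRNA and 3.70 to 6.90 CPM in controls. Earlier they did not move together. In 4-cell embryos Kdm5d was at 0.279 to 0.305 CPM after P300 siRNA and 6.51 to 8.43 CPM in controls and Eif2s3y at 49.7 to 52.2 CPM after P300 siRNA and 81.7 to 130 CPM in controls, while the ranges of Ddx3y and Uty overlapped. In early 8-cell embryos Kdm5d and Eif2s3y were again lower after P300 siRNA, at 0.0870 to 0.115 CPM against 1.38 to 4.13 CPM in controls and at 33.7 to 50.8 CPM against 59.36 to 59.39 CPM in controls, Ddx3y was higher at 29.6 to 46.3 CPM against 18.4 to 28.5 CPM in controls, and Uty overlapped. The sex of the embryos in each library was not given by the labels used here, and its part in the Pramel3 values was not tested.

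Pramel5 showed the widest gap among the members that stood lower after P300 siRNA. It had 72.0 and 62.3 CPM after P300 siRNA and 223 and 159 CPM in controls at the 4-cell stage, at a log2 fold change of -1.51 ± 0.21. In early 8-cell embryos it had 52.5 and 57.7 CPM after P300 siRNA and 143 and 128 CPM in controls (-1.30 ± 0.21). Late 8-cell Pramel5 was at 132 and 112 CPM after P300 siRNA and 1049 and 1118 CPM in controls (-3.16 ± 0.22). Its late 8-cell mean was 2.21 times its early 8-cell mean in P300 siRNA embryos and 8 times in controls. Over the 10 groups it was highest in late 8-cell controls, then with NaCr and with I1394G, each separated from the next, and lowest at the late 2-cell stage, where both groups overlapped.

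Pramel4, the near copy of Pramel5, was also lower after P300 siRNA from the 4-cell stage on, with smaller log2 fold changes. It had 38.9 and 39.4 CPM after P300 siRNA and 70.5 and 65.3 CPM in controls at the 4-cell stage (log2 fold change -0.79 ± 0.24), and 25.8 and 33.1 CPM in early 8-cell P300 siRNA embryos against 87.6 and 52.1 CPM in early 8-cell controls (-1.25 ± 0.25). At the late 8-cell stage Pramel4 had 74.3 and 52.8 CPM after P300 siRNA and 179 and 219 CPM in controls (-1.65 ± 0.25). Libraries did not overlap at any of these stages. Over the 10 groups it was highest in late 8-cell controls, then with NaCr and with I1394G, each separated from the next. P300 siRNA late 8-cell embryos overlapped 4-cell controls, and 4-cell controls overlapped early 8-cell controls.

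Pramel6 and Pramel7 were the most abundant members and were also lower after P300 siRNA. Pramel6 had 425 and 266 CPM after P300 siRNA and 547 and 420 CPM in controls at the 4-cell stage, where the libraries overlapped (log2 fold change -0.49 ± 0.21). At the early 8-cell stage it had 344 and 260 CPM after P300 siRNA and 509 and 569 CPM in controls (-0.84 ± 0.21). At the late 8-cell stage it had 516 and 502 CPM after P300 siRNA and 1801 and 1934 CPM in controls (-1.88 ± 0.21). Pramel6 thus stood at a late 8-cell level in P300 siRNA embryos that overlapped early 8-cell controls, its neighbour in the order. Pramel7 had 631 and 927 CPM after P300 siRNA and 1566 and 1616 CPM in controls at the 4-cell stage, at -1.03 ± 0.19. Early 8-cell Pramel7 was at 670 and 863 CPM after P300 siRNA and 1553 and 1498 CPM in controls (-0.99 ± 0.19). Late 8-cell Pramel7 was at 1073 and 849 CPM after P300 siRNA and 1910 and 1919 CPM in controls (-0.99 ± 0.19). In edgeR on all libraries the Pramel7 difference from the controls was of nearly one size over the 3 stages. Other settings gave -1.04 to -0.87 at the 4-cell, -1 to -0.14 at the early 8-cell and -1.01 to -0.52 at the late 8-cell stage. Some of these settings include the FPKM column that did not match its counts. The 3 P300 siRNA groups of Pramel7 from the 4-cell stage on overlapped one another in the order.

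Pramel1 was near the limit of counting after the late 2-cell stage. It had 3.79 and 5.65 CPM in P300 siRNA and 6.39 and 5.22 CPM in control late 2-cell embryos, and its later groups averaged 0.288 to 1.65 CPM on 9 to 54 counts. P300 siRNA and control libraries overlapped at every stage. With 1 library left out its log2 fold change after P300 siRNA was -0.62 to -0.04 at the late 2-cell stage, and from the 4-cell stage on it changed sign. It entered the fit mainly through the late 2-cell libraries.

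With the low-count filter all 6 members were tested. After P300 siRNA, edgeR called 1 member higher and 3 lower at the 4-cell stage, where 15% of all genes were called (7.77% higher, 7.25% lower). It called 1 higher and 4 lower at the early 8-cell stage, against 16.5% (8.21% higher, 8.3% lower), and 1 higher and 4 lower at the late 8-cell stage, against 28% (13.6% higher, 14.3% lower). Because this contrast chose the members, nothing is read from these counts. Together the members made up 1810 and 1524 CPM in late 8-cell P300 siRNA embryos and 4939 and 5192 CPM in late 8-cell controls.

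**Figure D2:**
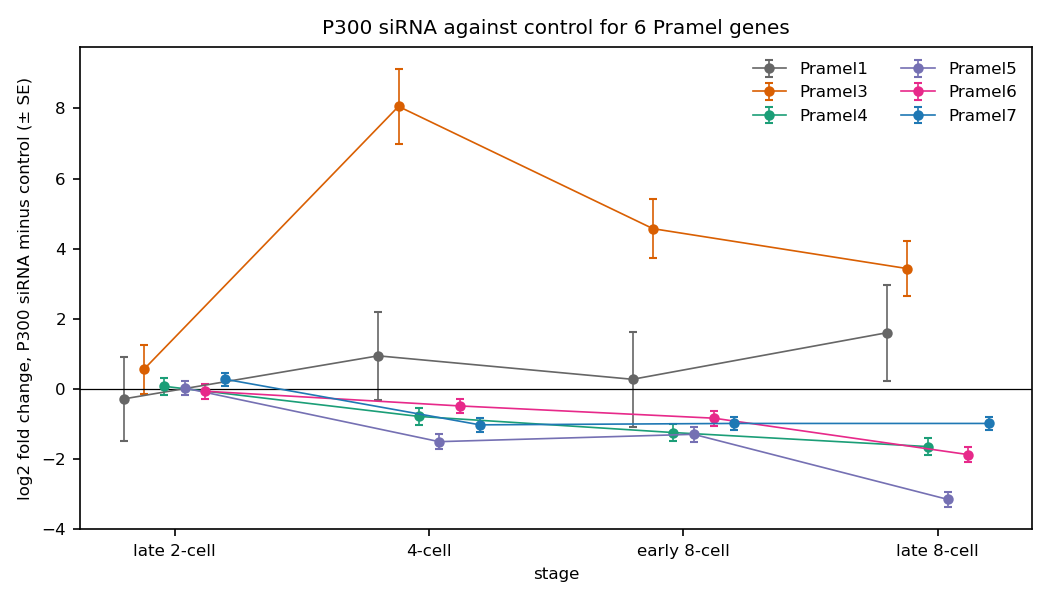
Log2 fold change of P300 siRNA minus control (vertical axis, with SE bars) at 4 stages for the 6 members. Pramel3 lies above 0 throughout and peaks at 8.06 at the 4-cell stage on 3 control counts, while Pramel5 reaches -3.16 at the late 8-cell stage.

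Levels of different members can be set beside each other only per length, as deposited FPKM. In late 8-cell controls Pramel7 averaged 881 FPKM, Pramel6 769 FPKM, Pramel5 432 FPKM, Pramel4 70.6 FPKM, Pramel3 0.225 FPKM and Pramel1 0.1 FPKM. In late 8-cell P300 siRNA embryos the same order held for the 4 abundant members, at 615, 292, 67.5 and 31.4 FPKM for Pramel7, Pramel6, Pramel5 and Pramel4. The ratio of Pramel5 over Pramel4 FPKM was 1.99 and 2.37 in late 8-cell P300 siRNA embryos and 6.60 and 5.73 in late 8-cell controls, so it was lower after P300 siRNA at that stage. It was also lower at the 4-cell stage, with 2.07 and 1.77 after P300 siRNA and 3.54 and 2.74 in controls, but not in early 8-cell embryos, with 2.28 and 1.96 after P300 siRNA and 1.83 and 1.20 in controls, the last from the FPKM column that did not match its counts.

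The rescue groups asked whether the late 8-cell levels differed from those of P300 siRNA alone. These comparisons share the P300 siRNA libraries with the contrast that chose the members and with each other. Pramel6 had 1813 and 1609 CPM with I1394G and 2083 and 2007 CPM with NaCr, against 516 and 502 CPM with P300 siRNA alone. Its edgeR log2 fold change over P300 siRNA was 1.75 ± 0.21 with I1394G (adjusted p = 0.000323) and 2.01 ± 0.22 with NaCr (adjusted p = 5.04e-05). Pramel7 had 1938 and 1979 CPM with I1394G and 2303 and 2323 CPM with NaCr, against 1073 and 849 CPM with P300 siRNA alone. The edgeR values were 1.03 ± 0.19 (adjusted p = 0.00333) and 1.27 ± 0.19 (adjusted p = 5e-04). Pramel4 had 145 and 157 CPM with I1394G and 166 and 169 CPM with NaCr, against 74.3 and 52.8 CPM with P300 siRNA alone, at 1.26 ± 0.25 (edgeR adjusted p = 0.00406) and 1.41 ± 0.25 (edgeR adjusted p = 0.0011). No rescue library of Pramel4, Pramel6 or Pramel7 overlapped a P300 siRNA library. On deposited FPKM, the Pramel7 calls were lost under limma, with 0.66 on the log2 scale for I1394G (adjusted p = 0.175) and 0.81 for NaCr (adjusted p = 0.0795). That fit includes the FPKM column that did not match its counts. With the column left out, an alternative chosen after seeing the data, both calls were kept.

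Pramel5 rose with both rescues but stayed below the controls. It had 446 and 417 CPM with I1394G and 472 and 458 CPM with NaCr, against 132 and 112 CPM with P300 siRNA alone and 1049 and 1118 CPM in controls. Over P300 siRNA its edgeR log2 fold change was 1.83 ± 0.21 with I1394G (adjusted p = 0.000211) and 1.94 ± 0.21 with NaCr (adjusted p = 5.75e-05). Comparisons of the rescue groups with controls share the control libraries with the contrast that chose the members, so they are no separate test of them. Against controls the Pramel5 log2 fold change was -1.33 ± 0.21 with I1394G (edgeR adjusted p = 0.00175) and -1.22 ± 0.21 with NaCr (edgeR adjusted p = 0.00504). Under limma on FPKM both were lost (-1.22, adjusted p = 0.0975, and -1.20, adjusted p = 0.139). With the mismatched FPKM column left out, limma kept both. In edgeR the second was also lost without control late 8-cell replicate 1 (adjusted p = 0.0614), control late 8-cell replicate 2 (adjusted p = 0.0803) or NaCr replicate 2 (adjusted p = 0.0757), at log2 fold changes of -1.26, -1.18 and -1.20. As a share of the control mean, Pramel5 stood at 39.8% with I1394G and 42.9% with NaCr. Pramel4 stood at 75.9% and 84.3%, Pramel6 at 91.6% and 109%, and Pramel7 at 102% and 121%. Pramel5 was the only member called against controls in either rescue group by edgeR fitted on all 20 libraries with the low-count filter, where 3.17% of all genes were called with I1394G (1.99% higher, 1.18% lower) and 1.57% with NaCr (1.07% higher, 0.5% lower). Without that filter edgeR also called Pramel3 with I1394G (2.59, adjusted p = 0.000254).

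Pramel3 was the member whose rescue values lay apart. It had 0.792 and 0.746 CPM with NaCr, against 13.8 and 7.80 CPM with P300 siRNA alone, a log2 fold change of -3.76 ± 0.85 (edgeR adjusted p = 0.00601). That call was lost when either NaCr library was left out, at -3.81 without replicate 1 (edgeR adjusted p = 0.0624) and -3.72 without replicate 2 (edgeR adjusted p = 0.0638), and under limma on FPKM (-1.89, adjusted p = 0.0506). With the mismatched FPKM column left out, limma kept the NaCr call. With I1394G Pramel3 had 8.12 and 3.61 CPM, which overlapped the P300 siRNA libraries, at -0.85 ± 0.70 (edgeR adjusted p = 0.474). Against controls, with 0.513 and 1.43 CPM, the I1394G libraries were higher without overlap, at 2.58 ± 0.77 (edgeR adjusted p = 0.0783). DESeq2 called that last difference (adjusted p = 0.0118). Over P300 siRNA, edgeR thus called 4 members higher with I1394G, where 10.8% of all genes were called (6.19% higher, 4.58% lower). With NaCr it called 4 higher and 1 lower, where 15.3% were called (8.77% higher, 6.57% lower). Of all calls over P300 siRNA, 57.5% were higher with I1394G and 57.2% with NaCr on counts, against 14.9% and 15.2% under limma on FPKM.

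I1394G against NaCr uses neither the P300 siRNA libraries without a rescue nor the controls, though the members were picked with results of all groups known. No gene and so no member was called by edgeR (0% of 16603 genes). At an unadjusted p under 0.05 there were 323 genes, of which Pramel3 was the only member, and neither DESeq2 nor limma on filtered FPKM called any gene. limma on unfiltered FPKM called 11 genes and edgeR on the 4 libraries alone called 2, with no member among them. Pramel3 had 8.12 and 3.61 CPM with I1394G and 0.792 and 0.746 CPM with NaCr, at a log2 fold change of 2.91 ± 0.83 (edgeR adjusted p = 1). Without the low-count filter edgeR called 20 genes, Pramel3 among them (adjusted p = 0.00266). The other members differed by between -0.26 and -0.11 on the log2 scale, with SEs of 0.19 to 0.24 for Pramel4, Pramel5, Pramel6 and Pramel7 and 1.44 for Pramel1, and a missed threshold does not show that the rescues act alike.

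**Figure D3:**
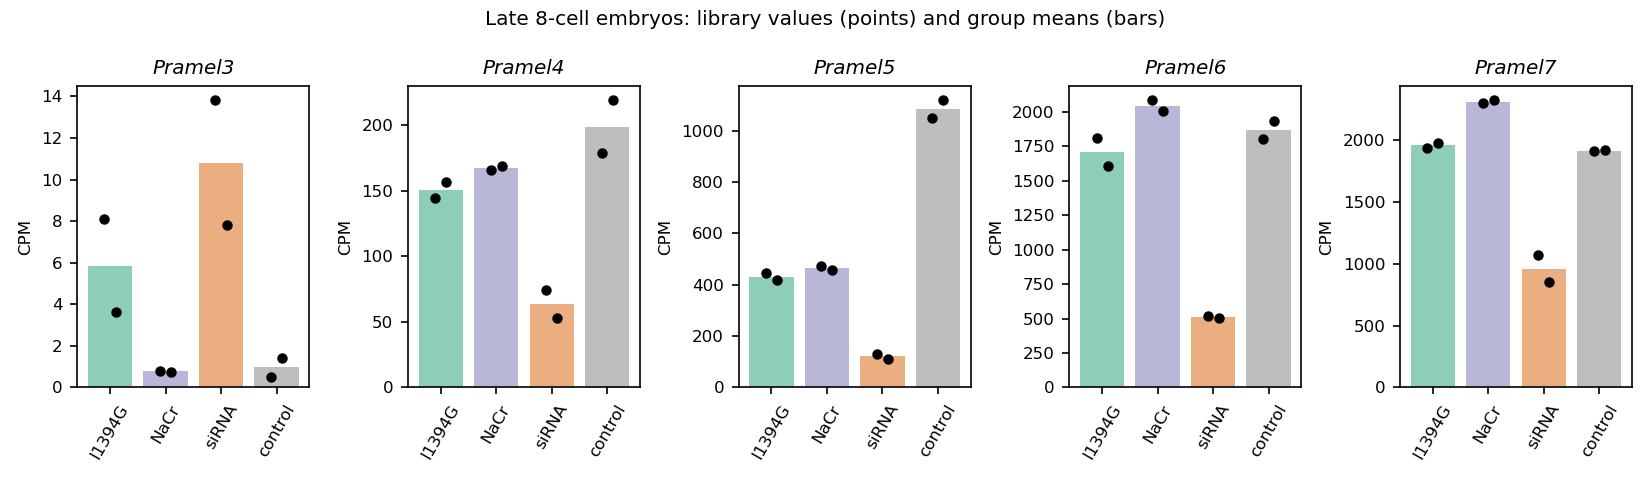
CPM of 5 members in late 8-cell embryos (vertical axes start at 0). Points are libraries and bars are group means. Pramel6 and Pramel7 lie at 91.6% to 121% of the control mean in the rescue groups, Pramel5 at 39.8% and 42.9%, and the I1394G libraries of Pramel3 at 8.12 and 3.61 CPM lie above NaCr and control.

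Copies of the family resemble one another, and no source used here says how reads that fit several genes were counted. Of the 50-base words of the Pramel4 transcript (GENCODE M21), 92.8% also occur in other genes, 91.4% in Gm13102, its neighbour on chromosome 4. For Pramel3 the share was 81.8%, led by Gm15023 with 71.1% and AV320801 with 66.9%. For Pramel5 it was 27.1%, with 23.7% in Pramel4, while Pramel7 had 0.442% and Pramel1 and Pramel6 had none. The Pramel4 and Pramel5 transcripts were identical at 94.6% of aligned bases. The values of Pramel4 and Pramel3 are therefore uncertain between the copies, and so are those of Pramel5 for the 27.1% of its words that other genes hold. Those of Pramel1, Pramel6 and Pramel7 are not touched at this word length beyond the 0.442% of Pramel7.

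Of the near copies, Gm13102 was called lower and AV320801 higher in late 8-cell P300 siRNA embryos. Gm13102 had 35.6 and 22.3 CPM in late 8-cell P300 siRNA embryos and 73.9 and 108 CPM in late 8-cell controls, at -1.67 ± 0.48 (edgeR adjusted p = 0.0148). It missed the threshold at the earlier stages, with -1.42 at the late 2-cell (edgeR adjusted p = 1), -1.42 at the 4-cell (edgeR adjusted p = 0.0509) and -1.28 at the early 8-cell stage (edgeR adjusted p = 0.0741). With NaCr over P300 siRNA it was called higher (1.69, edgeR adjusted p = 0.0232), and with I1394G it was at 1.31 (edgeR adjusted p = 0.0833). Its pattern over the 10 group means correlated with that of Pramel4 at 0.901, in the same libraries. AV320801 had 10.7 and 9.99 CPM in 4-cell P300 siRNA embryos, while 4-cell controls held no count. In late 8-cell embryos it had 11.1 and 2.17 CPM after P300 siRNA and 0.513 and 0.552 CPM in controls, at 3.54 ± 0.78 (edgeR adjusted p = 0.00313). Gm15023 had no count in any library. Pramef6, with 3.83% of the Pramel4 and 5.24% of the Pramel5 words, was called at no stage after P300 siRNA, with log2 fold changes of 0.18, -0.48, 1.17 and 0.17 from the late 2-cell to the late 8-cell stage. These genes were picked by transcript similarity after the members had been seen. Their counts may hold reads of the members, which P300 siRNA against control chose, so their calls are no separate test.

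Most of the 31 other PRAME-family rows were highest at the late 2-cell stage. Of the 30 with any count, 25 had their highest group mean at the late 2-cell stage. The share of all genes with their highest group mean at that stage is not given here. In controls edgeR called 23 lower and 1 higher at the 4-cell than at the late 2-cell stage (80% of the list, against 61.2% of all genes, 34.2% lower and 27% higher), with a median log2 fold change of -4.98 against -0.40 for all genes. Oog3, an oocyte-expressed family gene, averaged 129 CPM in 4-cell and 4249 CPM in late 2-cell controls (log2 fold change -5.04 ± 0.44, edgeR adjusted p = 2.09e-08). Oog1 had no count in 4-cell controls and averaged 157 CPM in late 2-cell controls, at least 1660-fold lower at the 4-cell stage when 3 counts are set for the group. Gm10436, Gm13023, C87977, Gm13078 and Gm13084 were likewise called lower by edgeR, with log2 fold changes of -5.26, -5.80, -5.60, -7.20 and -4.92, and Pramef25 with -2.87. Summed, the others made up 8102 and 7952 CPM in late 2-cell controls, far above the 327 and 353 CPM of the 6 members there. Gm13102, which the reference table does not name as PRAME family and the 31 rows leave out, went the other way in this step, with 59.2 CPM in 4-cell and 8.33 CPM in late 2-cell controls on average (2.80 ± 0.50, edgeR adjusted p = 0.000108).

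After P300 siRNA the other family genes were called in both directions. No gene of the 30 was called at the late 2-cell stage, 3 were lower at the 4-cell stage (10% of the list, 15% of all genes), and 1 was higher and 1 lower at the early 8-cell stage (6.67% of the list, 16.5% of all genes). In late 8-cell embryos 6 were higher and 3 lower (30% of the list, 28% of all genes). Gm13023 averaged 5.41 CPM in late 8-cell P300 siRNA embryos and 1.28 CPM in controls (log2 fold change 1.94 ± 0.42, edgeR adjusted p = 0.00244), and this call was kept without each of the 4 libraries. Gm10436, C87977, Gm13078 and Pramef25 were also called higher, and all lost the call without control late 8-cell replicate 1, at edgeR adjusted p-values of 0.0982, 0.0722, 0.197 and 0.0963. Gm10436 also lost it without P300 siRNA replicate 2 (1.44, adjusted p = 0.199). C87977 and Pramef25 also lost it without control replicate 2 (0.79 and 3.71, adjusted p = 0.151 and 0.124) and without P300 siRNA replicate 1 (0.64 and 2.37, adjusted p = 0.131 and 0.18). Gm13078 lost it whichever of the 4 libraries was left out, at 4.63 to 5.68. Prame, picked after its values were seen, was also higher, on 9 and 102 counts in late 8-cell P300 siRNA embryos. The late 8-cell control, I1394G and NaCr libraries held no Prame count. Against controls that is at least 49.3-fold when 3 counts are set for the group. Late 2-cell markers summed to 74.7 to 230 CPM in late 8-cell P300 siRNA embryos and 25.5 to 35.6 CPM in controls, and their part in these values was not tested. Gm3139, picked after its values were seen, was lower after P300 siRNA, as Pramel4 to Pramel7 were. It had 38.5 CPM on average in late 8-cell P300 siRNA embryos and 116 CPM in controls (-1.61 ± 0.29, edgeR adjusted p = 0.000555). It did not share their rise in controls, with 73.1 and 84.8 CPM at the late 2-cell and 68.6 and 110 CPM at the 4-cell stage. Pramef17 and Gm13128 were picked after their values were seen. Pramef17 had 14.4 and 15.5 CPM in early and 43.8 and 54.1 CPM in late 8-cell controls. Late 8-cell P300 siRNA embryos had 27.35 and 23.5 CPM (log2 fold change -0.95). With I1394G Pramef17 was at 53.8 and 61.4 CPM, with NaCr at 59.35 and 66.3 CPM. Gm13128 had 23.1 and 18.4 CPM in early and 69.3 and 99.0 CPM in late 8-cell controls, against 67.7 and 43.3 CPM after P300 siRNA. Neither rose from late 2-cell to 4-cell controls.

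**Figure D4:**
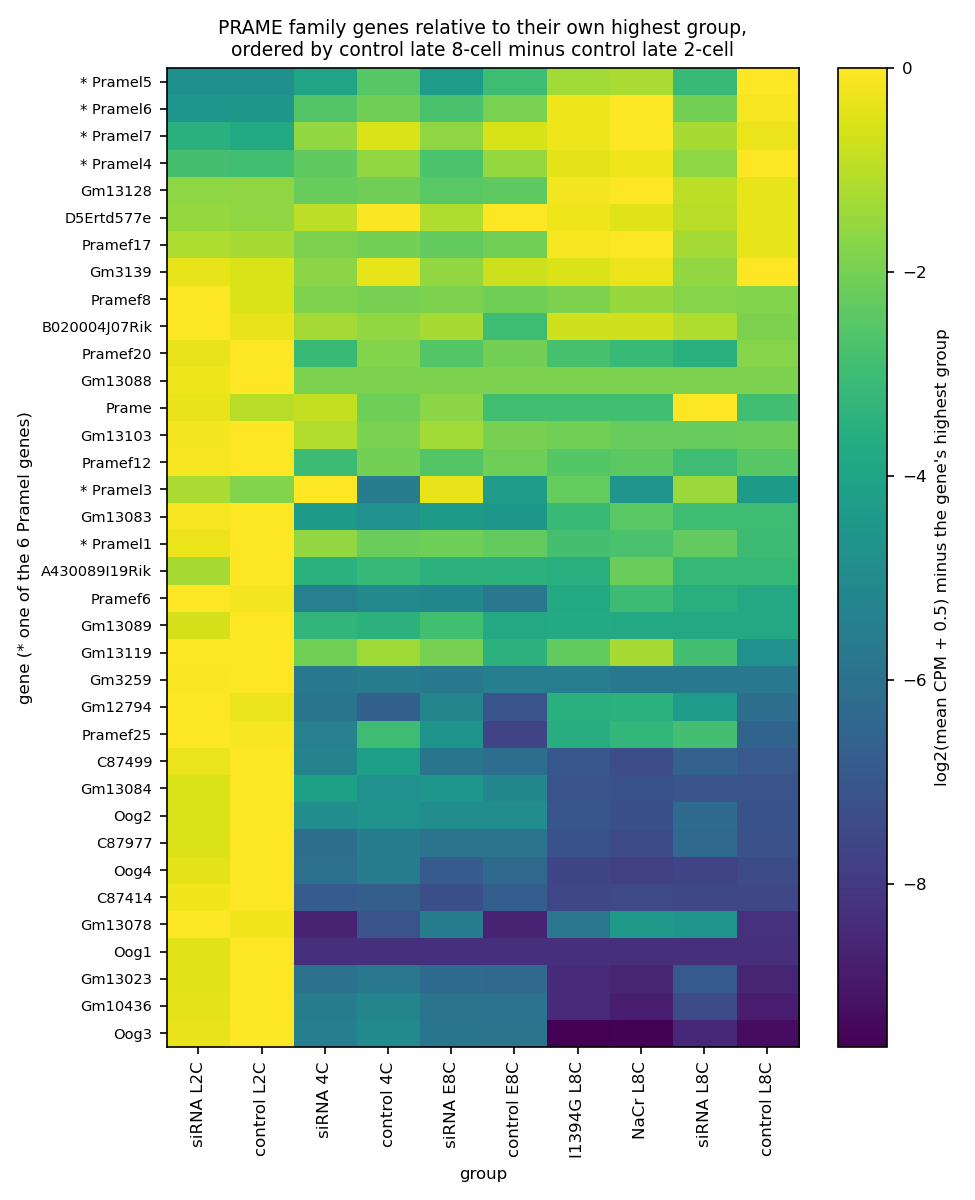
Group means of the 6 members (marked *) and 30 other PRAME-family genes, as log2(CPM + 0.5) minus the gene's own highest group, in 10 groups (columns). Pramel5, Pramel6, Pramel7 and Pramel4 head the list with their highest values in late 8-cell embryos, while 25 of the other genes have their highest mean at the late 2-cell stage.

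Of 11 CUL2 ligase genes tested, 5 were called lower and 1 higher in late 8-cell P300 siRNA embryos (54.5% of the list, 28% of all genes), with a median log2 fold change of -0.40 against 0.06 for all genes. Cul2, the scaffold, averaged 118 CPM after P300 siRNA and 420 CPM in controls (-1.83 ± 0.26, edgeR adjusted p = 9.39e-05). Eloc, the elongin C adaptor, averaged 808 CPM after P300 siRNA and 2643 CPM in controls (-1.71 ± 0.21, edgeR adjusted p = 2.12e-05), and Lrr1, another CUL2 receptor, averaged 527 CPM after P300 siRNA and 1261 CPM in controls (-1.26 ± 0.20, edgeR adjusted p = 0.000189). Fem1b, a further receptor, was higher at 1.03 ± 0.25 (edgeR adjusted p = 0.00534), a call lost without control late 8-cell replicate 1 (adjusted p = 0.0559) or P300 siRNA late 8-cell replicate 1 (adjusted p = 0.0543), at 0.99 and 0.79. The list held 3 lower genes at the 4-cell stage (27.3% of the list, 15% of all genes), and 2 lower and 1 higher at the early 8-cell stage (27.3% of the list, 16.5% of all genes). Over P300 siRNA alone, 4 genes of the list were called higher with I1394G (36.4% of the list, 10.8% of all genes), and 4 higher and 1 lower with NaCr (45.5% of the list, 15.3% of all genes).

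Of the 10 genes around UHRF1 and DNA methylation, 4 were called lower and 2 higher in late 8-cell P300 siRNA embryos (60% of the list, 28% of all genes, median log2 fold change -0.09 against 0.06 for all genes). Tet2, which oxidises methylated cytosine, averaged 13.2 CPM after P300 siRNA and 120 CPM in controls (-3.18 ± 0.27, edgeR adjusted p = 1.53e-06). Dppa3, which keeps UHRF1 off chromatin in oocytes and early embryos, averaged 3305 CPM after P300 siRNA and 6999 CPM in controls (-1.08 ± 0.16, edgeR adjusted p = 1e-04). Dnmt3b, a de novo methyltransferase, averaged 14.7 CPM after P300 siRNA and 56.7 CPM in controls (-1.89 ± 0.41, edgeR adjusted p = 0.00239), and without P300 siRNA late 8-cell replicate 2 it was at -2.70. Uhrf1 itself averaged 20.8 CPM after P300 siRNA and 11.2 CPM in controls (0.91 ± 0.30, edgeR adjusted p = 0.0299). That call was lost without control late 8-cell replicate 1, control late 8-cell replicate 2 or P300 siRNA late 8-cell replicate 2, at 1.16, 0.68 and 0.54 with edgeR adjusted p-values of 0.0558, 0.242 and 0.319. Tet3, the dioxygenase of the zygote, was higher at 1.04 ± 0.27 (edgeR adjusted p = 0.00822) and lost its call without the same libraries (adjusted p = 0.053, 0.0738 and 0.21). At the 4-cell stage 1 gene of the list was lower (10%, against 15% of all genes), and at the early 8-cell stage 1 was lower and 1 higher (20%, against 16.5% of all genes). Over P300 siRNA alone, 2 were higher and 1 lower with I1394G (30%, against 10.8% of all genes), and 3 higher and 2 lower with NaCr (50%, against 15.3% of all genes).

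Of the 10 LIF and STAT3 pathway genes, 3 were called higher and 2 lower in late 8-cell P300 siRNA embryos (50% of the list, 28% of all genes, median log2 fold change 0.42 against 0.06 for all genes). At the 4-cell stage 4 were lower (40%, against 15% of all genes), and at the early 8-cell stage 1 was lower (10%, against 16.5% of all genes). Tfcp2l1, a transcription factor induced by STAT3, averaged 31.2 CPM after P300 siRNA and 304 CPM in late 8-cell controls (-3.30 ± 0.42, edgeR adjusted p = 3.53e-05). Klf4, another pluripotency factor of that pathway, averaged 15.2 CPM after P300 siRNA and 77.4 CPM in controls at the early 8-cell stage (-2.35 ± 0.31, edgeR adjusted p = 8.79e-05). Stat3 averaged 2.73 CPM after P300 siRNA and 7.77 CPM in controls at the 4-cell stage (-1.52 ± 0.35, edgeR adjusted p = 0.00735), and without control 4-cell replicate 2 it was -1.08 (adjusted p = 0.0981). Il6st, the signalling receptor subunit, and Jak2, its kinase, were higher in late 8-cell P300 siRNA embryos, at 3.47 ± 0.83 (edgeR adjusted p = 0.00496) and 1.18 ± 0.29 (edgeR adjusted p = 0.00567). Il6st lost its call without control late 8-cell replicate 2 (3.25, adjusted p = 0.0566) and Jak2 without control late 8-cell replicate 1 (1.08, adjusted p = 0.0625).

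Of the 8 tested genes of retinoic acid reception, 2 were called higher and 1 lower in late 8-cell P300 siRNA embryos (37.5% of the list, 28% of all genes, median log2 fold change -0.82 against 0.06 for all genes). At the 4-cell stage 1 was higher (12.5%, against 15% of all genes), and at the early 8-cell stage 1 was called in each direction (25%, against 16.5% of all genes). Crabp1, a retinoic acid binding protein, had 603 counts in late 8-cell P300 siRNA embryos and 1 count in late 8-cell controls, a ratio of 803 with a 95% counting interval of 144 to 31800 (edgeR adjusted p = 0.000378). Crabp2, its relative, averaged 8.40 CPM after P300 siRNA and 0.130 CPM in controls (5.93 ± 1.07, edgeR adjusted p = 0.00061). The Crabp2 value was 7.05 without control late 8-cell replicate 1, 5.31 without control late 8-cell replicate 2 and 4.99 without P300 siRNA late 8-cell replicate 2, each still called. Rarb, a retinoic acid receptor, had no count in early 8-cell P300 siRNA embryos and 219 counts in early 8-cell controls, at least 69.2-fold lower when 3 counts are set for the group (edgeR adjusted p = 0.000948). Rxra, its partner receptor, averaged 10.6 CPM after P300 siRNA and 32.5 CPM in late 8-cell controls (-1.59 ± 0.41, edgeR adjusted p = 0.00794), and without P300 siRNA late 8-cell replicate 1 it was -1.45 (adjusted p = 0.0578).

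The genes most like each member were ranked by the correlation of log2(mean CPM + 1) over the 10 groups, which share libraries and stages, with unnamed gene models left out. Pramel4 was most like Pramel5 (0.985), then Steap3 (0.983) and Slc43a3 (0.982). Pramel5 was most like Smim22 (0.988), Pramel4 (0.985) and G3bp2 (0.978). Pramel6 was most like Btrc (0.996), Cln3 (0.994) and Coq6 (0.993), and Pramel7 like Tmem41b (0.996), Psat1 (0.995) and Gabarapl2 (0.995). For Pramel3 the first was Usp26 at 0.981, followed by Slc16a9 (0.947) and Acnat1 (0.946), and for Pramel1 Cpne9 (0.989) and Mucl3 (0.989) were among the first. Among the members, Pramel3 correlated with Pramel4 to Pramel7 at between -0.684 and -0.541.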

How the data were processed

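Single libraries were made from mouse embryos with Smart-seq2, per the labels' protocols. The authors deposited raw counts per gene and FPKM values per gene for 20 libraries. Reads were handled with bcl2fastq 2.20.0.422, cutadapt 4.1, HISAT2 2.2.1 and Cufflinks 2.2 on mm9, per the submitters' processing notes. The counter, its strand setting and its treatment of reads that fit several genes are not given in the sources used here, so the deposited counts of near-identical copies may be split between them.

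Counts were fitted in edgeR 4.0.16 (R 4.3.3) with TMM scaling, filterByExpr (16603 of 25208 genes kept), 1 coefficient for each of 10 groups and the quasi-likelihood test, with Benjamini-Hochberg adjustment over all genes kept. A call is an adjusted p under 0.05. The SE is the log2 fold change divided by the root of F. DESeq2 1.42.0 and limma 3.58.1 on log2(FPKM + 1), for genes with at least 1 FPKM in 2 libraries, were alternatives, with the others given at the end. The 2 libraries of every group differed beyond counting noise (chi-square over genes with at least 20 counts, 6.15 to 74.1 times its degrees of freedom), so none was merged.

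The members, gene lists and tests were chosen with earlier results of these data known. Named genes were the 6 members, up to 8 other family genes with a group mean of at least 10 CPM, up to 4 called genes of each partner list by adjusted p with Uhrf1, Stat3 and Cul2 always, Ep300, Xist, 4 Y-linked genes and the 3 most similar named genes of each member; any other is said to be chosen after its values were seen. One gene that this rule names is not reported here. Transcript identity replaced a planned protein comparison, because protein sequences were not used here. Promoters are RefSeq sequences of GRCm38.p6, not the build of the counts, and serve only as sequence. Counting intervals are 95% exact and cover counting error only.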

Additional observations from a re-analysis of the deposited data

Results flagged for a closer look

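Pramel7 after P300 siRNA had a log2 fold change of 0.27 at the late 2-cell stage and of -1.03, -0.99 and -0.99 at the 4-cell, early 8-cell and late 8-cell stages. It stands here because both P300 siRNA libraries lay above both controls at the first stage and below them at the other 3. The difference between stages was not tested.

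In the deposited FPKM, Pramel3 had 11.01 FPKM in control early 8-cell replicate 2, a library with 1 Pramel3 count. The highest value of the other controls after the late 2-cell stage was 0.46 FPKM, and the P300 siRNA early 8-cell libraries had 5.00 and 8.89 FPKM. Over 7134 genes that FPKM column correlated with its own counts at 0.854, against 0.988 or more in the other 19 libraries.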

How the results depend on the processing

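Under other settings 548 member values stayed on their side of the threshold or, in P300 siRNA against control, which carries no test for the members, within the spread between libraries, while 54 moved, 14 gained and 17 lost the threshold and 9 reversed. With 1 library left out the counts were 257, 9 moved, 5 lost and 17 reversed. In P300 siRNA against control these counts of reversals leave out sign changes of values that were not called, which numbered 4 under other settings, all of Pramel1, and 10 with 1 library left out (Pramel1 from the 4-cell stage on, and Pramel4, Pramel5 and Pramel6 at the late 2-cell stage). Of 84 named calls outside the members, 26 were kept without each library and 17 under every setting. The cause of these changes was not tested. Counts called by edgeR on all libraries are given in parentheses, P300 siRNA stages are set against controls of that stage, and rescue comparisons are at the late 8-cell stage.

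Without the low-count filter, other family genes called came to 17 in control late 8-cell against early 8-cell (9) and 8 in P300 siRNA early 8-cell (2) and 7 in I1394G against P300 siRNA (4) and 6 in control early 8-cell against 4-cell (1) and 5 in P300 siRNA 4-cell (3), I1394G against control (1), NaCr against control (0) and 1 in I1394G against NaCr (0). The members called came to 2 in I1394G against control (1) and 1 in control early 8-cell against 4-cell (0), I1394G against NaCr (0). The partner genes called came to 18 in I1394G against P300 siRNA (11). With DESeq2, other family genes called came to 7 in I1394G against P300 siRNA (4) and 5 in P300 siRNA early 8-cell (2) and 2 in control early 8-cell against 4-cell (1), NaCr against control (0). The members called came to 2 in I1394G against control (1). With limma on log2(FPKM + 1), members called came to 3 in NaCr against P300 siRNA (5) and 2 in P300 siRNA 4-cell (4) and 0 in P300 siRNA early 8-cell (5), I1394G against control (1), NaCr against control (1). The other family genes called came to 1 in P300 siRNA 4-cell (3) and 0 in P300 siRNA early 8-cell (2), control early 8-cell against 4-cell (1), I1394G against control (1). The partner genes called came to 3 in P300 siRNA 4-cell (9) and 0 in P300 siRNA early 8-cell (8). With limma on log2(FPKM + 0.1), members called came to 2 in I1394G against P300 siRNA (4) and 1 in P300 siRNA 4-cell (4) and 0 in P300 siRNA early 8-cell (5), I1394G against control (1), NaCr against control (1). The other family genes called came to 1 in P300 siRNA 4-cell (3) and 0 in P300 siRNA early 8-cell (2), control early 8-cell against 4-cell (1), I1394G against control (1). The partner genes called came to 5 in I1394G against P300 siRNA (11) and 1 in P300 siRNA 4-cell (9) and 0 in P300 siRNA early 8-cell (8). With limma on unfiltered log2(FPKM + 1), other family genes called came to 4 in P300 siRNA late 8-cell (9), NaCr against P300 siRNA (7) and 1 in P300 siRNA late 2-cell (0), P300 siRNA 4-cell (3) and 0 in P300 siRNA early 8-cell (2), control early 8-cell against 4-cell (1), I1394G against control (1). The members called came to 3 in P300 siRNA late 8-cell (5), NaCr against P300 siRNA (5) and 2 in I1394G against P300 siRNA (4) and 1 in P300 siRNA 4-cell (4) and 0 in P300 siRNA early 8-cell (5), I1394G against control (1), NaCr against control (1). The partner genes called came to 7 in I1394G against P300 siRNA (11) and 2 in P300 siRNA 4-cell (9) and 0 in P300 siRNA early 8-cell (8). With limma on log2(FPKM + 1) and the mismatched column left out, an alternative chosen after seeing the data, partner genes called came to 5 in P300 siRNA 4-cell (9). The members called came to 3 in P300 siRNA early 8-cell (5). The other family genes called came to 1 in P300 siRNA early 8-cell (2) and 0 in control early 8-cell against 4-cell (1), I1394G against control (1). Fitted on the 4 libraries compared alone, other family genes called came to 5 in P300 siRNA late 2-cell (0), I1394G against control (1), NaCr against control (0) and 3 in NaCr against P300 siRNA (7) and 2 in I1394G against P300 siRNA (4) and 0 in P300 siRNA 4-cell (3), control early 8-cell against 4-cell (1). The partner genes called came to 5 in P300 siRNA early 8-cell (8) and 1 in P300 siRNA late 2-cell (0) and 0 in P300 siRNA 4-cell (9). The members called came to 2 in I1394G against control (1), NaCr against control (1) and 1 in P300 siRNA 4-cell (4).

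Leaving out 1 library at a time, other family genes called came to 0 to 5 in P300 siRNA 4-cell, 0 to 2 in control early 8-cell against 4-cell, 0 to 1 in P300 siRNA early 8-cell, 2 to 5 in P300 siRNA late 8-cell, 0 to 1 in I1394G against control, 0 to 2 in NaCr against control, 0 to 2 in I1394G against P300 siRNA, 1 to 4 in NaCr against P300 siRNA. Leaving out 1 library at a time, partner genes called came to 5 to 8 in P300 siRNA 4-cell, 13 to 20 in P300 siRNA late 8-cell, 4 to 12 in I1394G against P300 siRNA, 9 to 14 in NaCr against P300 siRNA. Leaving out 1 library at a time, members called came to 0 to 1 in NaCr against control.

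With the replicate number as a block, member calls stayed at 0, 4, 5 and 5 over the 4 P300 siRNA stages, and no count of calls moved by 1.5 times. Same-numbered libraries correlated at -0.062 to 0.225 in their deviations, the highest in P300 siRNA against control at the 4-cell stage. Whether libraries of the same number belong together was not settled by these values. Under the block the control step to the early 8-cell stage reversed for Pramel1 (0.23), and the step from it to the late 8-cell stage for Pramel3 (0.06).

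The other reversals fell on values that edgeR on all libraries had not called. In the control step from 4-cell to early 8-cell embryos, limma on FPKM gave -0.16, -0.17 and -0.16 for Pramel4 and -0.31, -0.32 and -0.31 for Pramel6, and 0.18 for Pramel1 without the mismatched column. With 1 library left out, values that reversed ranged, for Pramel1, from -2.27 to 0.6 in control early 8-cell against 4-cell, -2.22 to 0.65 in control late 8-cell against early 8-cell, -0.88 to 1.19 in I1394G against control, -0.13 to 1.31 in NaCr against control, -2.46 to 0.55 in I1394G against P300 siRNA, -1.71 to 0.65 in NaCr against P300 siRNA, -1.4 to 0.54 in I1394G against NaCr; for Pramel3, from -0.17 to 6.82 in control early 8-cell against 4-cell, -1.02 to 3.29 in control late 8-cell against early 8-cell, -0.88 to 0.58 in NaCr against control; for Pramel4, from -0.37 to 0.37 in control early 8-cell against 4-cell; for Pramel6, from -0.02 to 0.38 in control early 8-cell against 4-cell.

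Scaling by DESeq2 size factors shifted the all-gene median log2 fold change by 0.1 or more in 3 comparisons. It became 0.198 (0.061) in P300 siRNA late 8-cell, -0.646 (-0.401) in control 4-cell against late 2-cell, and -0.166 (-0.066) in I1394G against P300 siRNA. The share of higher calls with I1394G over P300 siRNA was then 45.3% (57.5%), and under limma on log2(FPKM + 1) the share in P300 siRNA against control was 77.8% (51.7%) at the 4-cell and 75% (48.8%) at the late 8-cell stage. Fitted on the 4 libraries compared alone, edgeR called 59 (2494) of all genes in P300 siRNA 4-cell, 4031 (527) in I1394G against control and 2263 (261) in NaCr against control. The shares of all genes called are thus bound to the fit on all libraries. No setting turned the direction of Pramel3, Pramel4, Pramel5, Pramel6 or Pramel7 after P300 siRNA from the 4-cell stage on. Depth limits Pramel1 after the late 2-cell stage and Pramel3 in controls.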
